A study of Mus musculus with 2 samples.

Results

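The cells described here are Foxp3-gated regulatory T (Treg) cells from mouse liver tumours, chosen by their RNA. A barcode was selected on a Foxp3 UMI (a unique molecular identifier, which counts 1 captured RNA molecule), at least 1 UMI over Cd3d, Cd3e and Cd3g, no UMI of Cd8a or Cd8b1, fewer than 20 UMIs of the plasma cell gene Jchain and at most 2 UMIs over the macrophage genes C1qa, C1qb and C1qc. Barcodes under 500 UMIs or 250 genes, or above 10% mitochondrial UMIs, were left out beforehand. The rule gave 652 Treg cells of 21998 kept cells and of 7188 T cells, 361 from DMSO and 291 from STK tumours. The study took hepatocellular carcinomas of MYC-ON mice after gavage, sorted CD45+ live cells from them and made a 10x 5′ single-cell RNA library from each group. All cells of both groups are labelled MYC-ON. One group received DMSO and the other received STK, and STK is not described further in the labels. The study's title names inhibition of Soat1, which esterifies cholesterol, Treg function, and 20(S)-hydroxycholesterol acting through the receptor Gpr132. The labels give neither the age, sex and number of the animals behind a library nor the dose and time of gavage, and do not say which cells express the transgene.

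Each group is 1 library, so no difference below was tested against variation between animals. Intervals are 95% intervals that cover counting error only.

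Treg cells are CD4 T cells whose identity rests on the transcription factor Foxp3, and they restrain other immune cells. They do so through the receptor Ctla4, which takes B7 ligands from antigen-presenting cells, through capture of IL-2 by the high-affinity receptor chain Il2ra, and through cytokines such as IL-10 and TGF-beta. Treg cells in tissues and tumours commonly carry Ccr8, a chemokine receptor, and many make amphiregulin (Areg), a growth factor for epithelium, whereas resting Treg cells carry Ccr7, a chemokine receptor that directs cells to lymph nodes.

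The Treg cells had median depths of 4205 UMIs per cell with DMSO and 4402 with STK, and 2217685 and 1930417 UMIs in all. No barcode was a Treg cell in both libraries, although the libraries shared 183 barcodes among kept cells, and 5 DMSO and 6 STK Treg cells bore a barcode present in the other library. The libraries differed in sex. Of the Treg cells with RNA of Xist alone or of Y-linked genes alone, 18 of the DMSO cells were female and 179 male, against 104 female and 69 male cells with STK. Values within female and within male cells are therefore given beside main results, and those within female cells rest on the 18 DMSO cells. Sex and treatment cannot be told apart in the pooled values.

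The label fitted the other markers of the cell type, which the gate did not use. Ctla4 stood at 1390 CPM (counts per 1000000, the gene's summed UMIs scaled to that total over all UMIs of the cells) in DMSO and 1226 CPM in STK Treg cells. In Cd4 T cells, defined by a Cd4 UMI without Foxp3 or Cd8 RNA, it stood at 479 and 418 CPM, and in Cd8 T cells without Foxp3 RNA at 178 and 193 CPM. Ikzf2, which encodes the transcription factor Helios, stood at 479 and 472 CPM in Treg, 120 and 126 CPM in Cd4 T and 58.9 and 62.4 CPM in Cd8 T cells. Tnfrsf4, the costimulatory receptor OX40, stood at 1223 and 1381 CPM in Treg against 348 and 451 CPM in Cd4 T cells. Il2ra stood at 144 and 177 CPM against 24.3 and 42.6 CPM, and Ccr8 at 404 and 317 CPM against 111 and 132 CPM. Each of the 5 markers thus lay highest in Treg cells in both libraries. At least 3 of the 5 were detected in 310 DMSO Treg cells (85.9%) and 263 STK Treg cells (90.4%), and none in 6 and 2 cells. Cd4 itself had a UMI in 51.0% and 52.6% of Treg cells.

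**Figure D1:**
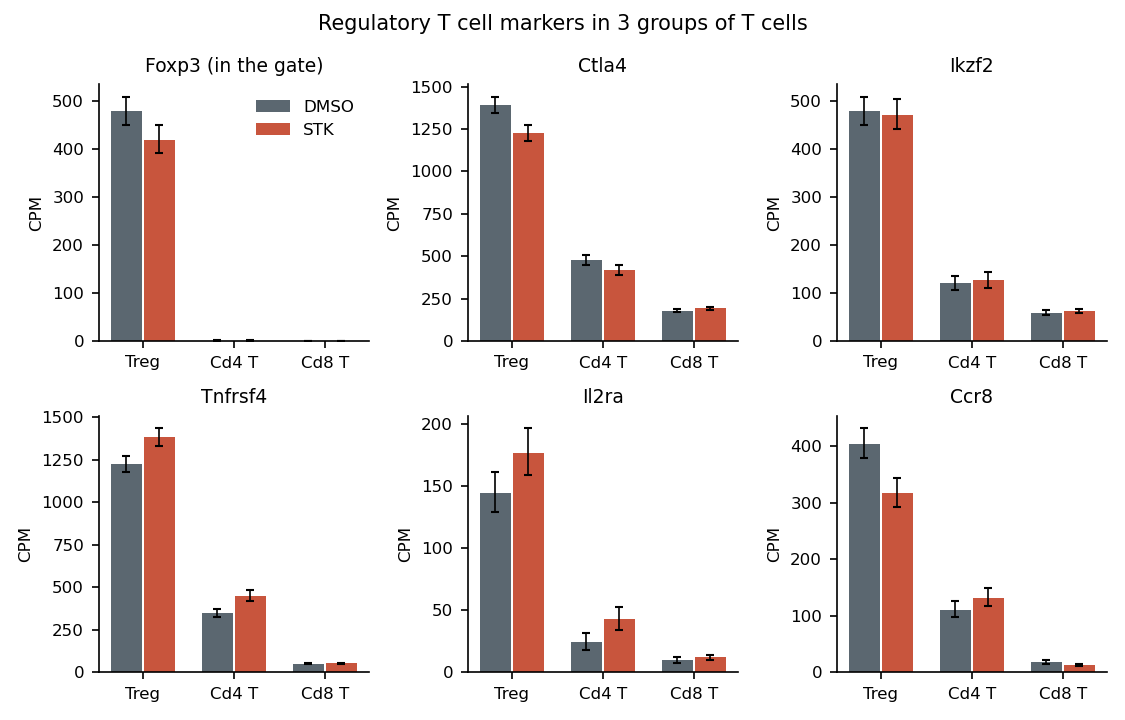
Levels (CPM, vertical axes) of Foxp3 and of 5 further Treg markers in Treg, Cd4 T and Cd8 T cells of the DMSO (grey) and STK (red) libraries, with bars for the summed UMIs and error bars for the exact Poisson 95% interval. Ctla4, Ikzf2, Tnfrsf4, Il2ra and Ccr8 were highest in Treg cells of both libraries, for example 1390 CPM of Ctla4 in DMSO Treg against 479 CPM in Cd4 T cells.

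Foxp3 (ENSMUSG00000039521, chrX:7573644-7595245 on GRCm38) was part of the gate, so its level describes the choice of cells. It stood at 480 CPM with DMSO (451 to 509) and 420 CPM with STK (392 to 450). A single Foxp3 UMI admitted 111 DMSO (30.7%) and 106 STK cells (36.4%). Cells just inside the threshold, with 1 Foxp3 UMI, had 1279 and 1146 CPM of Ctla4, and cells with 2 or more had 1424 and 1265 CPM. Just outside it, T cells with no Foxp3 and no Cd8 UMI had 273 and 190 CPM. At the other edge, Foxp3-positive cells kept out by a single Cd8 UMI, 22 with DMSO and 32 with STK, had 990 and 748 CPM of Ctla4.

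Treg cells held more RNA of most Treg identity genes than Cd4 T cells did. Because the gate is part of this contrast, it is given as a description. Of 3212 genes with at least 50 UMIs and 50 CPM in the group where they were higher, 42 (1.31%) were at least 2 times higher in Treg than in Cd4 T cells in both libraries and 38 (1.18%) at least 2 times lower. Against Cd8 T cells the shares were 4.64% and 2.29% of 3188 genes, counting Foxp3, Cd8a and Cd8b1, which the gate fixed. Of 15 measured genes of a Treg identity list, 11 were higher than in Cd4 T cells and 0 lower. Foxp3, whose difference the gate fixed, is counted among these 11 and among the 42 genes above. Of 13 suppressive genes 6 were higher and 0 lower, of 23 effector and tissue genes 3 higher and 1 lower, and of 19 genes of TNF receptors and NF-kB 3 higher and 1 lower. Ikzf4, which encodes the Ikaros family factor Eos, was 6.14 times higher with DMSO and 6.50 times with STK. Lrrc32, the surface docking protein for latent TGF-beta, was 6.18 and 5.12 times higher, and Tnfrsf9, the receptor 4-1BB, 6.10 and 4.46 times. Klrg1, an inhibitory receptor of differentiated cells, was 5.99 and 7.39 times higher. Rln3, a relaxin peptide gene, stood furthest from Cd4 T cells after Foxp3, at 8.41 and 9.70 times. Wls, a carrier of Wnt proteins, was 3.68 and 4.05 times higher. Cd4 T cells held 17.8 and 23.9 times more Cd40lg, the helper signal to B cells, than Treg cells. They also held 9.73 and 9.33 times more Tcf7, a factor of stem-like T cells, and 4.95 and 5.07 times more Ifng. Of 15 measured cytotoxic and effector cytokine genes, 0 were higher in Treg cells and 4 lower, namely Gzmk, Ctsw, Fasl and Ifng.

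Treg cells made up a smaller share of T cells in the STK library. They were 361 of 3157 T cells with DMSO (11.4%, 10.3 to 12.6) and 291 of 4031 with STK (7.22%, 6.44 to 8.06), a ratio of 0.631 (0.545 to 0.731). After each cell was thinned to 1000 UMIs the shares were 6.09% and 4.42%. The gap narrowed when Cd8 T cells, which were 42.6% and 49.1% of T cells, were left out of the denominator. Of T cells without Cd8 RNA, Treg cells were 20.5% and 14.98%, and of Treg and Cd4 T cells together they were 45.9% and 41.1% (ratio 0.895, 0.797 to 1.01). Among female T cells the shares were 7.32% (18 of 246) and 6.599% (104 of 1576), a ratio of 0.902 (0.557 to 1.46), and among male T cells 13.4% and 10.1%, a ratio of 0.754 (0.580 to 0.980). Of Treg and Cd4 T cells together the female share was higher with STK, at 31.6% (18 of 57) and 44.3% (104 of 235), a ratio of 1.40 (0.932 to 2.11), and the male share lower, a ratio of 0.880 (0.720 to 1.07).

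The Cd8 condition of the gate removed unequal numbers. Foxp3-positive T cells with Cd8 RNA were 49 of 410 Foxp3-positive T cells with DMSO (12.0%) and 110 of 401 with STK (27.4%), a ratio of 2.30 (1.69 to 3.12). Their median depths were 8143 and 8359 UMIs, above those of the Treg cells, and 19 of the 49 and 33 of the 110 lay among the highest doublet scores, against 14.7% and 16.2% of Treg cells. Of these cells, those with 2 or more Cd8 UMIs held 160 and 257 CPM of Gzmk and 1025 and 1363 CPM of Nkg7, both cytotoxic lymphocyte genes, against 12.2 and 10.4 CPM and 375 and 438 CPM in the Treg cells. With these cells counted as Treg cells the ratio of shares was 0.766.

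STK and DMSO Treg cells differed by 1.5 times or more in few genes. Of 3423 measured genes, 110 (3.21%) were at least 1.5 times higher with STK and 109 (3.18%) at least 1.5 times lower. The markers Ikzf2, Ctla4, Tnfrsf4, Il2ra and Ccr8 lay within 1.5 times of equality in the pooled cells, whereas some other identity genes did not. Ikzf2 had a ratio of STK to DMSO of 0.984 (0.900 to 1.08), Ctla4 of 0.882 (0.835 to 0.930), Tnfrsf4 of 1.13 (1.07 to 1.19), Il2ra of 1.22 (1.05 to 1.43) and Ccr8 of 0.783 (0.706 to 0.869). In male cells alone Il2ra stood at 1.88 and Ccr8 at 0.990. In female cells alone Ikzf2 stood at 0.517, Il2ra at 0.590 and Foxp3 at 0.460. Of the 19 measured genes of the identity list, 4 were at least 1.5 times higher and 0 lower in the pooled cells (median log2 ratio 0.14). Over all 11151 genes with at least 10 UMIs, 8.89% were higher and 11.2% lower. In female cells 7 of the 19 were lower and 0 higher (-0.31), where 3119 of all 8452 genes were lower and 1568 higher (-0.26). In male cells 7 were higher and 0 lower (0.30), where 1019 of all 9705 genes were higher and 1927 lower (-0.06). The genes furthest apart were heat shock genes on the low side, and on the high side Ly6d, Vps37b, Ckb, Gem, Fosb, Kdm6b and Dgat1.

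**Figure D2:**
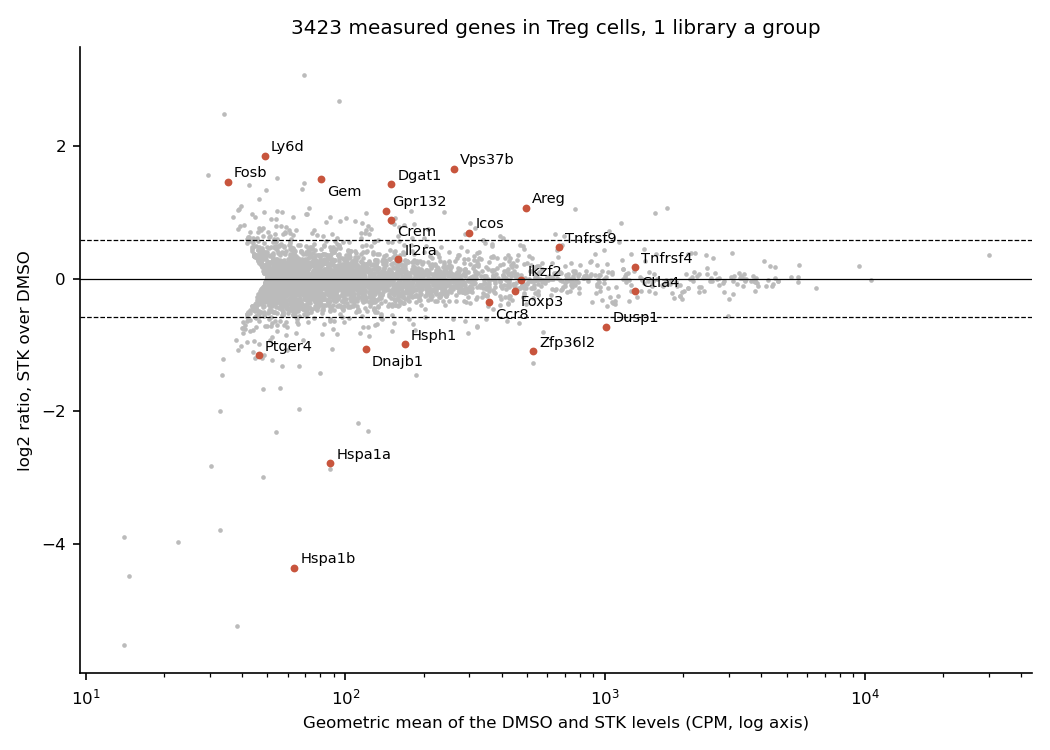
Ratio of STK to DMSO (log2, vertical axis) against the geometric mean of both levels (CPM, log axis) for 3423 measured genes in Treg cells, each dot a gene, with dashed lines at 1.5 times. Most genes lie between the dashed lines, Hspa1b and Hspa1a lie lowest of the named genes at -4.36 and -2.79, and Ly6d highest at 1.86.

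Among genes of Treg effector function, amphiregulin was higher with STK. Areg (ENSMUSG00000029378, chr5:91139599-91148432) stood at 340 CPM in DMSO and 717 CPM in STK Treg cells, from 755 and 1384 UMIs, a ratio of 2.11 (1.93 to 2.30). It had a UMI in 30.7% and 64.3% of Treg cells. After thinning to 1000 UMIs these shares were 18.8% (14.9 to 23.3) and 35.4% (29.9 to 41.2). A hepatocyte or tumour gate admitted only cells without a UMI of Cd3d, Cd3e or Cd3g, so T cells were largely kept out of it by design. Its cells had median depths of 25376.5 and 26097 UMIs before thinning. After thinning, 0 of 517 and 0 of 331 of them had an Areg UMI, where 3 cells, the limit set for a count of 0, would be 0.580% and 0.906%. Before thinning, 0.191% and 0.293% had one. Female Treg cells alone had a ratio of 2.93 and male Treg cells one of 2.12. Areg was lower in other T cells and higher there with STK too, at 115 and 214 CPM in Cd4 T and 14.6 and 72.2 CPM in Cd8 T cells, so that the Cd8 T ratio of 4.94 exceeded that of Treg cells. The log2 difference between the Treg and the Cd8 T ratio was -1.23 (-1.55 to -0.91), and between Treg and Cd4 T cells 0.18 (-0.07 to 0.44). The single cell with the most Areg held 48 UMIs with DMSO and 50 with STK, 6.36% and 3.61% of all Areg UMIs of the Treg cells.

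Areg was detected more often in STK cells on either side of the other genes examined. Among Treg cells with a Ccr8 UMI its share was 35.8% with DMSO and 71.8% with STK, and among those without one 23.1% and 52.6%. Among cells with a Klrg1 UMI it was 36.9% and 72.9%, and without one 24.1% and 54.4%. Among cells with Il1rl1, the receptor for the alarmin IL-33, it was 9 of 23 cells with DMSO (39.1%) and 32 of 38 with STK (84.2%). Cells with a UMI of these genes were also deeper in each comparison, for instance a median of 5166.5 UMIs with and 2872 without Ccr8 in DMSO cells.

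The Areg promoter is shown with that of Dusp1, since each carries a full cyclic AMP response element (CRE, letters TGACGTCA on either strand) and the genes lay on opposite sides of equality. Both windows hold the 250 bases before the RefSeq start on GRCm38.p6, on the strand of the gene, with the CRE in capitals. The first is chr5:91139349-91139598 (plus strand), with the element starting 61 bases before the start, and the second is chr17:26508473-26508722 (minus strand), with the element starting 143 bases before it.

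Areg: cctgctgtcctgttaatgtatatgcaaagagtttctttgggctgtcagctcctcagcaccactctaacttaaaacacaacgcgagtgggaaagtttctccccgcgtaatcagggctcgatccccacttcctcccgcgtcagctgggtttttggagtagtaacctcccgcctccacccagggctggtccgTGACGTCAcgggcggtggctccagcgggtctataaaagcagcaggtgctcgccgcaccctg

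Dusp1: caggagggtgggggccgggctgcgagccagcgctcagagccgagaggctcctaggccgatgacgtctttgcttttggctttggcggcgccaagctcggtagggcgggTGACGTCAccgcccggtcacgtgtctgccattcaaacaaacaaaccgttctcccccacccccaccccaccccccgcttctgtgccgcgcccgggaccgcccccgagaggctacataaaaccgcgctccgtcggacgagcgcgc

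The CRE occurred in 1.55% of 32851 RefSeq promoter windows of this length. Of the 15 genes highest in STK Treg cells, 10 matched the promoter table and Areg alone of them held the element, and of the 15 lowest 13 matched and 0 held it. Dusp1, a phosphatase that turns off MAP kinases and has a CRE, stood at 1296 CPM with DMSO and 786 CPM with STK (ratio 0.607, 0.570 to 0.646).

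Other effector genes were spread. Of 33 measured genes of a tissue and effector Treg list, 9 were at least 1.5 times higher with STK and 3 lower, with a median log2 ratio of 0.17. Over all 11151 genes with at least 10 UMIs, the minimum used for lists, 8.89% were higher and 11.2% lower, with a median of -0.04. Dgat1, which makes triglycerides, stood at 91.5 CPM with DMSO and 246 CPM with STK (ratio 2.68, 2.27 to 3.18), 3.30 in female and 3.54 in male cells. Icos, a costimulatory receptor of effector Treg cells, stood at 236 and 382 CPM (1.62, 1.45 to 1.82). Il1r2, a decoy receptor for IL-1, stood at 45.5 and 86.5 CPM, and Il1rl1 at 14.4 and 33.7 CPM. Cxcr6, a tissue homing receptor, stood at 32.5 and 62.2 CPM (1.91, 1.42 to 2.60), while it was near equal in Cd4 T (0.992) and Cd8 T cells (1.03). Tnfrsf9 stood at 563 and 787 CPM (1.40, 1.30 to 1.51).

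Of 22 measured suppressive genes, 5 were higher and 1 lower (median 0.16). In female cells 2 of 20 were higher and 8 lower (median -0.38), beside 1568 and 3119 of all 8452 genes (-0.26). The 5 included Areg, Lrrc32 at 50.1 and 76.1 CPM, Furin, a protease that processes TGF-beta, at 18.9 and 33.2 CPM, and Nt5e, which makes adenosine, at 28.9 and 47.1 CPM. Il10 was the lower one, at 42.8 CPM with DMSO and 18.6 CPM with STK (ratio 0.435, 0.288 to 0.645, from 95 and 36 UMIs). That direction was absent in male cells, where the ratio was 1.15, and after thinning 4.78% (2.81 to 7.54) and 2.41% (0.972 to 4.89) of Treg cells had an Il10 UMI. Tgfb1, Ebi3 and Fgl2, which encode suppressive cytokines, had ratios of 1.20, 1.06 and 1.03. Entpd1, which breaks down extracellular ATP, had a ratio of 0.877.

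Genes around TGF-beta signalling held the largest share of members on the high side among the 11 lists plotted. Of 15 measured, 7 were at least 1.5 times higher with STK and 0 lower, with a median log2 ratio of 0.26. Skil and Smad7, which are induced by the pathway and restrain it, stood at 85.2 and 170 CPM (interval of the ratio 1.67 to 2.40) and at 90.2 and 146 CPM (1.61, 1.34 to 1.95). Itgae, the CD103 integrin chain that binds E-cadherin, stood at 41.0 and 71.0 CPM (1.73, 1.32 to 2.28). The list's median was 0.18 in Cd4 T, 0.23 in Cd8 T and 0.39 in male Treg cells. In female cells 8 members of the list were lower and 1 higher, and Smad7 had a ratio of 0.521. Over all 8452 genes in female cells the median was -0.26, with 3119 lower and 1568 higher.

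**Figure D3:**
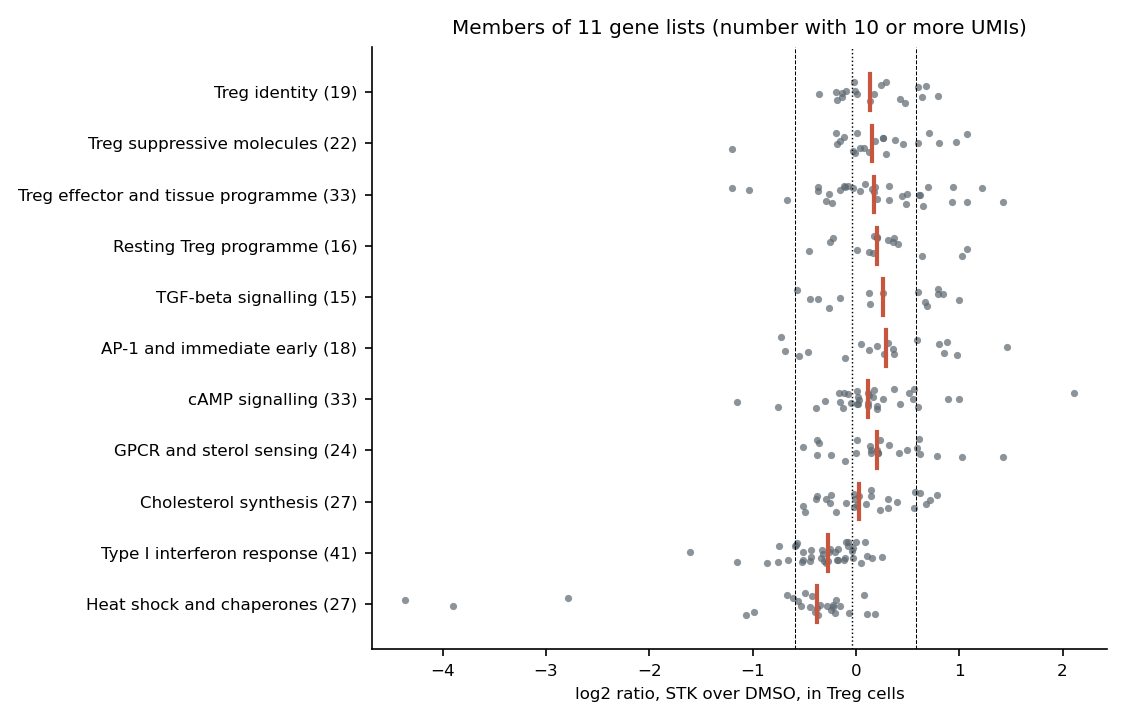
Log2 ratio of STK to DMSO in Treg cells (horizontal axis) for the members of 11 gene lists with at least 10 UMIs, each dot a gene, with red bars at list medians, dashed lines at 1.5 times and a dotted line at the median of all genes. Median log2 ratios run from -0.37 for heat shock genes to 0.29 for AP-1 and immediate early genes.

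Gpr132, the receptor named in the study's title, was higher with STK in Treg cells and in other T cells. Gpr132 (ENSMUSG00000021298, chr12:112850873-112868228) stood at 101 CPM in DMSO and 205 CPM in STK Treg cells, a ratio of 2.04 (1.73 to 2.41). It had a UMI in 38.5% and 66.7% of cells, and in 10.96% and 21.99% after thinning, against 0 of 517 and 0 of 331 thinned cells in the hepatocyte or tumour gate. Before thinning, 1.15% and 3.81% of the cells of that gate had one. Female Treg cells alone had a ratio of 1.39 and male Treg cells one of 2.49. Cd4 T cells held 99.5 and 260 CPM (ratio 2.61) and Cd8 T cells 70.5 and 163 CPM (2.31). The log2 difference between the Treg and Cd4 T ratios was -0.36 (-0.68 to -0.03). The Treg level was 1.01 times that of Cd4 T cells with DMSO (0.835 to 1.22) and 0.790 times with STK (0.692 to 0.902).

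Soat1 (chr1:156424525-156474331), the target in the title, was scarce, at 34.7 CPM with DMSO and 40.9 CPM with STK from 77 and 79 UMIs, a ratio of 1.18 (0.850 to 1.63). Of 24 measured genes that bind, sense or esterify sterols, 6 were at least 1.5 times higher and 0 lower (median 0.21), Dgat1 and Gpr132 among them. The acid-sensing receptor Gpr65 stood at 54.6 and 63.2 CPM, and Gpr183, the receptor for a further oxysterol, at 41.5 and 55.4 CPM. Of 27 genes of cholesterol synthesis and uptake 4 were higher and 0 lower, with a median of 0.03. In Cd4 T cells 0 of the 27 were higher and 6 lower (-0.32), and in Cd8 T cells 2 were higher and 0 lower (0.25). Over all genes in Treg cells 8.89% were higher and 11.2% lower, with a median of -0.04. Of 15 measured targets of the oxysterol receptors LXR, 1 was higher and 0 lower in Treg cells. That one was Abca1, which exports cholesterol, with 11 and 19 UMIs (1.98, 0.897 to 4.62).

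Genes induced by cyclic AMP or by antigen receptor signals lay on both sides of equality. Crem, a cyclic AMP-induced repressor, stood at 110 and 204 CPM (1.86, 1.58 to 2.18), with larger ratios in Cd4 T (3.10) and Cd8 T cells (3.45) and a ratio of 0.808 in female cells. Rgs2, which damps G protein signals, stood at 169 and 338 CPM (interval of the ratio 1.76 to 2.28). The nuclear receptors Nr4a2 and Nr4a3, induced early after antigen receptor signals, stood at 86.6 and 156 CPM and at 63.6 and 121 CPM, while Nr4a1 had a ratio of 1.36. In a list of 29 measured early response genes of the T cell receptor, 5 were higher and 4 lower. Over all genes 8.89% were higher and 11.2% lower. Of 18 AP-1 genes, 6 were higher, among them Fosl2 (1.98) and Fosb (2.76), and 2 were lower, Jun (0.604) and Atf3 (0.620). In Cd4 T cells 10 of 18 were higher and 0 lower, beside 1269 and 1366 of all 11229 genes. In Cd8 T cells 5 of 19 were higher and 0 lower, beside 1931 and 844 of all 13419 genes. Within male Treg cells 2 of 18 were higher and 3 lower, beside 1019 and 1927 of all 9705 genes. Within female ones 5 were higher and 6 lower (median -0.31), beside 1568 and 3119 of all 8452 genes (-0.26). Fosb was near equal in male cells, at 0.983.

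Further genes high with STK were Vps37b, a subunit of an endosomal sorting complex, at 147 and 466 CPM (3.17, 2.79 to 3.61), detected in 49.3% and 82.5% of Treg cells. Its ratios were 3.76 in Cd4 T and 2.33 in Cd8 T cells, and 2.33 and 3.61 in female and male Treg cells. Gem, a small GTPase, stood at 47.8 and 135 CPM and Kdm6b, a histone H3 demethylase, at 41.9 and 114 CPM. Zc3h12a, the ribonuclease Regnase-1, stood at 50.1 and 105 CPM (2.10, 1.66 to 2.67). Lars2, a mitochondrial tRNA ligase, stood at 531 and 1103 CPM (2.08, 1.93 to 2.23) with like ratios in Cd4 T (2.04) and Cd8 T cells (2.22). Ckb, a creatine kinase, had a ratio of 2.88 that became 0.666 without cells bearing defining myeloid or B cell markers, and 18.5% of its UMIs came from 1 cell.

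**Figure D4:**
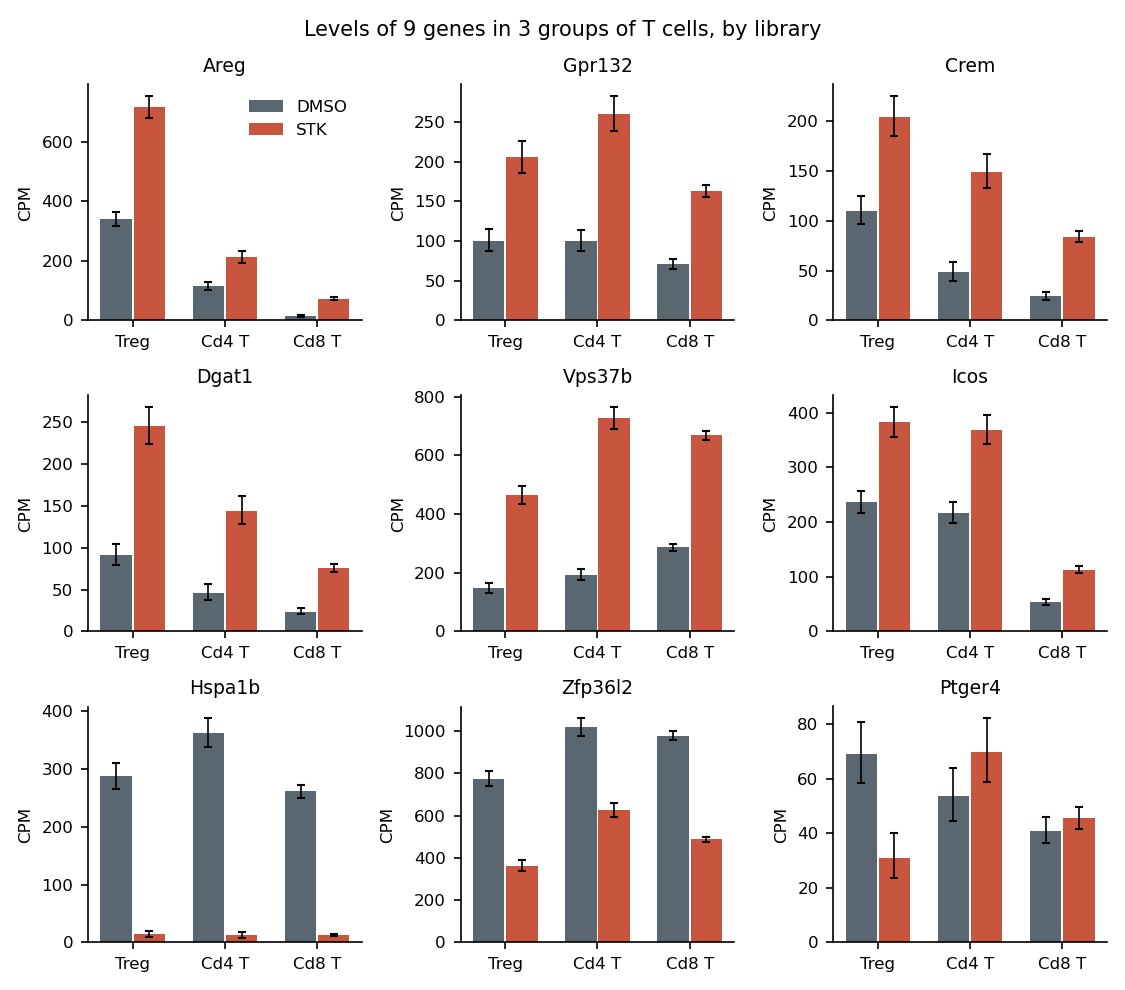
Levels (CPM, vertical axes, each panel on its own scale) of 9 genes in Treg, Cd4 T and Cd8 T cells of the DMSO (grey) and STK (red) libraries, with exact Poisson 95% intervals. Areg, Gpr132, Crem, Dgat1, Vps37b and Icos are higher and Hspa1b and Zfp36l2 lower with STK in all 3 groups, and Ptger4 is lower in Treg cells, at 69.0 and 31.1 CPM, and not in the other groups.

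Heat shock genes were the furthest below equality. Hspa1b, an inducible HSP70, stood at 287 CPM with DMSO and 13.99 CPM with STK, from 637 and 27 UMIs, a ratio of 0.0487 (0.0318 to 0.0715). Hspa1a stood at 229 and 33.2 CPM (0.145, 0.110 to 0.188). Of 27 measured chaperone genes 7 were at least 1.5 times lower and 0 higher, with a median log2 ratio of -0.37. Dnajb1 and Hsph1, partners of HSP70, stood at 173 and 82.9 CPM and at 239 and 120 CPM. The constitutive Hspa8 stood at 3598 and 2439 CPM. The difference was shared by the other T cells, where Hspa1b had ratios of 0.0355 (Cd4 T) and 0.0473 (Cd8 T), and the log2 difference between Treg and Cd4 T ratios was 0.46 (-0.34 to 1.25). Male and female cells differed in it. The list's median was -0.61 in male and 0.27 in female cells. Hspa1a had a ratio of 0.0110 in male cells, and 60 of its 64 UMIs with STK came from female cells. The 18 female DMSO cells held 0 UMIs of Hspa1a, so that against a floor of 3 UMIs it was at least 1.46-fold higher with STK in female cells. They held 4 UMIs of Hspa1b.

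The promoters of this pair are shown because the genes could not be separated with confidence. The windows are chr17:34972157-34972406 and chr17:34959239-34959488 (minus strand, 250 bases before the RefSeq start on GRCm38.p6), with a pair of inverted heat shock units (GAANNTTC, which reads alike on both strands) in capitals, 104 bases before each start.

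Hspa1a: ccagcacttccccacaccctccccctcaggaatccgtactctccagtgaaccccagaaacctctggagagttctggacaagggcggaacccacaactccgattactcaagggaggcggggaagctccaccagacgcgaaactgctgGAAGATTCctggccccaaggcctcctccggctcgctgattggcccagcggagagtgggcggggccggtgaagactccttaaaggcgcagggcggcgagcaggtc

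Hspa1b: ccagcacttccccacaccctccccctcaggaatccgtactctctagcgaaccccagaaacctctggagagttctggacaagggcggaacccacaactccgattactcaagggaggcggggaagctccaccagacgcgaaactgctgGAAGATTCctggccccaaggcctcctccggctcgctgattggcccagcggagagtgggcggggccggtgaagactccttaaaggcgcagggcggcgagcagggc

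These windows share 247 of 250 letters (98.8%), and the genes are near-identical copies, so that how their reads were divided is uncertain. The element occurred in 6.69% of all promoter windows, and in 9 of the 22 chaperone genes that matched the table.

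Zfp36l2 and Zfp36, RNA-binding proteins that shorten the life of messenger RNA, were lower with STK, although the list they belong to was spread, with 2 of 17 measured genes higher, 2 lower and a median of 0.12. Zfp36l2 stood at 775 CPM with DMSO and 362 CPM with STK (0.467, 0.427 to 0.511), 0.404 in female and 0.582 in male cells, and at ratios of 0.613 and 0.498 in Cd4 T and Cd8 T cells. Zfp36, which encodes tristetraprolin, stood at 762 and 438 CPM (0.575, 0.529 to 0.625). Txnip, a brake on glucose uptake, stood at 151 and 85.5 CPM. Of 41 measured genes of the type I interferon response, 0 were higher and 7 lower with a median of -0.27, led among better measured members by Slfn8 at 72.6 and 32.6 CPM. Over all genes 11.2% were lower. The median of that list was -0.0038 in male cells. In female cells 2 of 36 were higher and 21 lower (median -0.67), beside 1568 and 3119 of all 8452 genes (-0.26). Genes of proliferation were 4 lower and 0 higher of 37, beside 11.2% of all genes lower. In female cells 22 of the 37 were higher and 5 lower (median 0.95). The share of cycling cells, with at least 2 UMIs of Mki67 and Top2a, was 22.4% and 21.6%.

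Ptger4, the prostaglandin E2 receptor EP4, was low with STK in Treg cells but not in other T cells. Ptger4 (ENSMUSG00000039942, chr15:5206661-5244187) stood at 69.0 and 31.1 CPM in Treg cells, from 153 and 60 UMIs, a ratio of 0.450 (0.329 to 0.611). It stood at 53.6 and 69.9 CPM in Cd4 T cells (1.30) and 41.0 and 45.6 CPM in Cd8 T cells (1.11). The log2 difference of ratios was -1.53 (-2.09 to -0.98) against Cd4 T and -1.30 (-1.78 to -0.83) against Cd8 T cells. Female Treg cells alone had a ratio of 0.608 and male ones of 0.524.

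Receptors and factors that mark tissue and recirculating Treg cells were read one by one. Ccr8 had a UMI in 60.4% of DMSO and 60.8% of STK Treg cells. Ccr7 stood at 125 and 255 CPM (2.04, 1.76 to 2.37), and after thinning 5.06% (3.02 to 7.87) and 10.3% (7.06 to 14.4) of Treg cells had a UMI of it. Its ratio was 1.73 in male Treg cells, and the 18 female DMSO cells held only 2 UMIs of it. In Cd4 T and Cd8 T cells its ratios were 1.85 and 1.42. Klf2, a factor that maintains recirculation, lay on the other side, at 430.2 and 360.5 CPM (0.838, 0.759 to 0.925).

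Some Treg cells held RNA of another cell type. Siglech, which marks plasmacytoid dendritic cells, had a UMI in 14 DMSO (3.88%) and 16 STK Treg cells (5.50%). These Siglech-bearing Treg cells had median depths of 8848 and 8015 UMIs, and 11 and 13 of them lay among the highest doublet scores. Ly6d, a surface protein of plasmacytoid dendritic and B cells, had a ratio of 3.63, yet 7 of its 11 DMSO and 13 of its 18 STK cells held Siglech. Of its UMIs 17.3% came from 1 cell, and the ratio was 2.15 without the Siglech-bearing cells, 1.49 without the highest doublet scores and 1.37 in female cells. Without them Areg had a ratio of 2.20, Gpr132 of 2.10 and Ccr7 of 2.10.

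RNA of T cell receptor variable segments was lower in STK Treg cells, while that of the CD3 chains was level. Whether receptor segments were enriched in preparing either library is not given in the sources used here, so library preparation and treatment cannot be told apart in these values. All Trbv segments together stood at 2004 CPM with DMSO and 716 CPM with STK (0.357, 0.336 to 0.379), and all Trav segments at 2107 and 514 CPM (0.244, 0.228 to 0.262). Joining segments were lower still, with ratios of 0.0964 for Trbj and 0.0308 for Traj. Trbc2, the second beta constant region, stood at 819 and 338 CPM (0.413), Trac at 322 and 211 CPM (0.657) and Trbc1 at 51.4 and 46.6 CPM (0.907, 0.680 to 1.21). Cd3d, Cd3e and Cd3g summed to 2272 and 2269 CPM (0.999, 0.959 to 1.04). The same held in Cd4 T and Cd8 T cells, with Trbv ratios of 0.413 and 0.323, and within female (0.317) and male Treg cells (0.396). In the hepatocyte or tumour gate Trbv RNA stood at 9.94 and 0.240 CPM. Of 23 Trbv segments with at least 10 UMIs, 17 were at least 1.5 times lower and 4 higher.

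**Figure D5:**
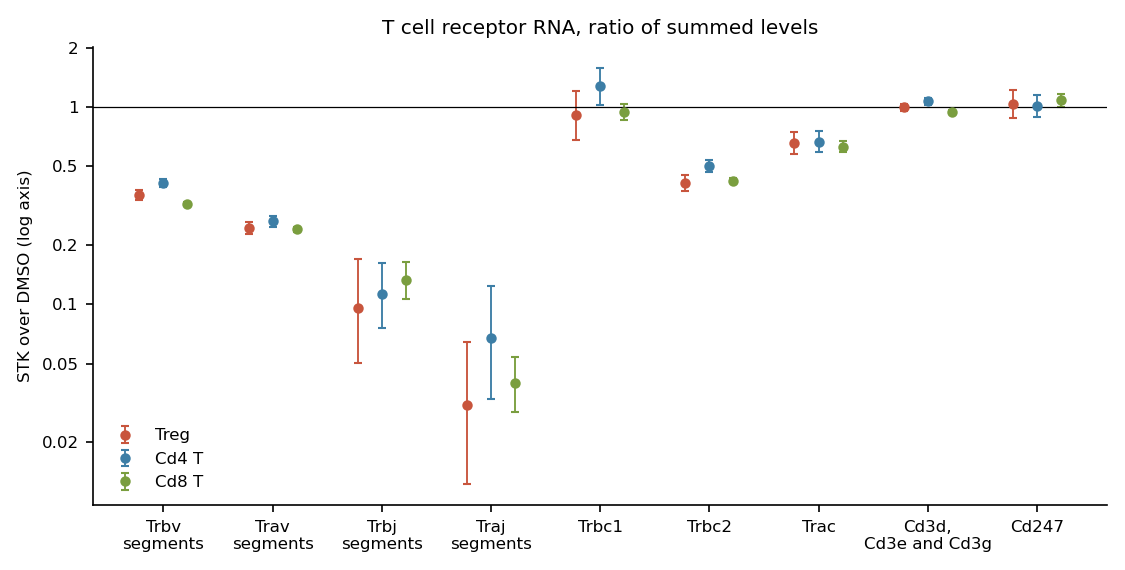
Ratio of STK to DMSO (log axis) of the summed levels of T cell receptor segment families, constant regions and CD3 chains in Treg (red), Cd4 T (blue) and Cd8 T (green) cells, with exact 95% intervals for counting error. Variable and joining segments lie below 1 in all 3 groups, whereas the CD3 chains and Cd247 lie near 1, at 0.999 and 1.04 in Treg cells.

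Treg cells used many Trbv segments in both libraries. A segment with at least 2 UMIs could be assigned in 310 of 361 DMSO and 194 of 291 STK Treg cells, over 20 and 21 segments. Trbv3 led in both, at 15.8% (11.9 to 20.4) and 14.4% (9.81 to 20.2), and Trbv1 followed with DMSO at 10.6%, while with STK Trbv1 and Trbv29 each stood at 8.25%. The inverse Simpson index, the number of equally used segments that would give the same spread, was 12.4 and 15.2, beside 12.5 and 12.0 in Cd4 T and 13.9 and 16.0 in Cd8 T cells. In DMSO Cd4 T cells Trbv20 led, at 17.6%, a segment at 1.29% in DMSO Treg cells.

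RNA of other cell types was present in Treg cells of both libraries, and its part in the results was not tested. Summed macrophage and monocyte markers stood at 1443 and 1482 CPM, and 69.5% and 72.9% of Treg cells had at least 2 such UMIs. B and plasma cell markers summed to 413 and 427 CPM, hepatocyte or tumour markers to 1046 and 1086 CPM, NK cell markers to 797 and 997 CPM, dendritic cell markers to 6771 and 7957 CPM and neutrophil markers to 333 and 272 CPM. By gene, 8 of 10 measured NK cell markers were at least 1.5 times higher with STK and 0 lower, with a median of 1.02. Only 5 of the 10 had at least 50 UMIs. The rise was not seen within either sex. In male cells 0 of 4 measured were higher and 1 lower, and in female cells 3 of 9 were higher and 6 lower (median -0.78). Over all genes in female cells, 1568 of 8452 were higher and 3119 lower. Of 12 dendritic cell markers 4 were higher and 0 lower, and of 12 macrophage and monocyte markers 0 were higher and 2 lower. Of 8 neutrophil markers 1 was higher and 4 lower (median -1.53, or -0.33 among the 5 with at least 50 UMIs). Of them, S100a8 and Retnlg had 67 and 23 UMIs with DMSO and 0 with STK. Cd8a and Cd8b1 were at 0 by the gate. Without the cells holding 3 or more UMIs of defining myeloid and B cell markers, 262 DMSO and 211 STK cells remained, and Areg had a ratio of 2.57, Gpr132 of 2.59, Dgat1 of 2.90, Hspa1b of 0.00719 and Ptger4 of 0.497.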

How the data were processed

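Single-cell RNA was measured in CD45+ cells from tumours of MYC-ON mice, 1 library for DMSO and 1 for STK. The deposited matrices hold raw UMI counts, written by Cell Ranger 6.0.2 per the file headers, on GRCm38 (mm10) per the submitters' processing notes. Neither annotation release nor aligner settings could be taken from these sources. Each library held 11784 and 11672 barcodes with 79322966 and 81859811 UMIs. The gate, the gene lists and the comparisons were chosen with earlier results of these data known, so that they are no independent evidence.

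UMIs were summed over cells and scaled to CPM, with exact Poisson intervals. Ratios have exact conditional binomial intervals, shares Clopper-Pearson intervals and ratios of shares log-normal ones. A count of 0 UMIs in a library was set to a floor of 3 in ratios, and other counts were used as they were. PCR and cell sampling beyond counting error are not covered. Named were the 15 genes highest and 15 lowest in STK Treg cells, the 15 highest and 10 lowest against Cd4 T cells (minimum 50 UMIs and 50 CPM, at most 20% of UMIs in 1 cell, leaving out genes of antigen receptors, red cells, hepatocytes, ribosomes, mitochondria and sex chromosomes, gene models and Rik genes), 8 genes whatever their value and up to 6 per list. Further list members and T cell receptor families were chosen after their values were seen. Lists count members with at least 10 UMIs. Scrublet scores (scanpy 1.11.5, expected rate 8%) ranked doublets, and since the automatic threshold called 1.94% and 0% the highest 8% of scores were used and left in. Ratios were checked on simulated counts. Python 3.11.15, numpy 2.4.6, scipy 1.17.1 and matplotlib 3.10.9 were used. Positions are from GENCODE vM21, promoters from RefSeq.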

Additional observations from a re-analysis of the deposited data

Results flagged for a closer look

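The difference between the ratio of STK to DMSO in Treg cells and that in another group of T cells is given on the log2 scale. The genes here had ratios on opposite sides of equality in the groups compared, with intervals that did not overlap equality in this difference, and with 1 library per group the difference between animals was not tested. Ptger4 stood at -1.53 against Cd4 T cells. Mdm2, which degrades p53, stood at -1.93 against Cd4 T and -1.43 against Cd8 T cells, with 18.1% of its UMIs in 1 cell. Cd63, a vesicle membrane protein, stood at -1.78 against Cd8 T cells. Ly6d stood at 3.26 against Cd4 T cells, beside the Siglech-bearing cells described above.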

How the results depend on the processing

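No paired analysis was possible because each group is 1 library. The ratio of Treg shares among T cells was 0.766 with Foxp3-positive cells bearing Cd8 RNA included, 0.902 in female and 0.754 in male cells. The counts of genes 1.5 times higher and lower (110 and 109 of 3423 measured) became 282 and 364 of 6548 with a minimum of 20 UMIs and 20 CPM, 162 and 182 of 3456 without the highest doublet scores, 115 and 276 of 2666 in male cells, 53 and 39 of 630 without cells with B cell or macrophage list UMIs, and 146 and 191 of 3499 without cells with defining myeloid or B cell markers. The share of higher genes among those past 1.5 times was 50.2% in all Treg cells and 29.4% in male cells. Of the 110 and 109 genes, 39 and 74 were past it in male cells. The alternatives without cells with defining markers and without Siglech-bearing cells were chosen after seeing the data. Counts against Cd4 T cells (42 and 38) became 88 and 91 with any Cd4 T cell, 131 and 96 at 1.5 times, and 27 and 23 after thinning. Median of ratios scaling moved all ratios by 0.03 (log2) and put no named gene on the other side of equality except Ikzf2 (0.984 and 1.01). Of the named genes at least 1.5 times apart, those on the other side of equality were Ckb at 0.666 without defining myeloid or B cell markers, Itgae at 0.794 without B cell or macrophage list UMIs, and Fosb at 0.983 and Il10 at 1.15 in male cells. In female cells, with 18 DMSO cells, they were Arid5a 0.905, Nabp1 0.754, Gdpd3 0.420, Smad7 0.521, Crem 0.808, Nr4a2 0.894, Nr4a3 0.690, Fosl2 0.834, Cxcr4 0.730, Hspa1a at least 1.46, Bbc3 2.12, Mdm2 1.20, Dnajb1 2.09 and Atf3 3.47. Nearer genes crossed it too, among them Il2ra (0.590) and Tnfrsf4 (0.809) in female and Foxp3 (1.12) and Ctla4 (1.14) in male cells. The cause was not tested. With 1 library a group and 18 female DMSO cells, treatment, animal and sex cannot be told apart.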
